A study of Mus musculus with 12 samples.

Results

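The genes described here are 10 genes that mark neutrophils, mast cells and basophils, read in cultured dendritic cells. They are S100a8, S100a9, Ngp, Ltf, Camp, Mpo, Elane, Prtn3, Cpa3 and Fcer1a. Each was taken as the row of the deposited table whose only gene symbol is the member's. All 10 were found, with 1 row each, among 14807 genes that have a row of their own. The samples were CD8α+-like dendritic cells from C57BL/6 bone marrow grown for 10 days with FLT3L at 100 ng/ml, sorted as CD24-high, CD11b-low and B220-negative cells. A group of 3 arrays was made from each of 4 conditions. Wild-type (WT) and Clec9a gfp/gfp (mutant) cells, the latter lacking the dead cell receptor DNGR-1, were either untreated (labelled 0 h) or kept for 5 h with dead cells. The dead cells had been exposed to UVC at 240 mJ/cm2 and cultured for a further 24 h, and the labels do not name their type. The cultures came from whole bone marrow, which also yields granulocytes and macrophages, and the labels do not say whether replicates came from separate cultures or animals. The p-values therefore measure the spread between these arrays, which may be technical.

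Neutrophils fill their granules in a fixed order as they mature. Azurophil (primary) granules are made first, in promyelocytes, and hold myeloperoxidase (Mpo) and the serine proteases neutrophil elastase (Elane) and proteinase 3 (Prtn3). Specific (secondary) granules are made later, in myelocytes, and hold lactoferrin (Ltf), the cathelicidin precursor (Camp) and neutrophilic granule protein (Ngp). S100a8 and S100a9 encode the subunits of calprotectin, a metal-binding protein that lies in the cytosol and not in granules, and that is abundant in neutrophils and monocytes. Cpa3 encodes a carboxypeptidase of mast cell granules, also found in basophils. Fcer1a encodes the alpha chain of the high-affinity IgE receptor, a surface protein of mast cells and basophils.

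With dead cells 6 of the 10 members were lower, and these were the same genes in both genotypes: S100a8, S100a9, Ngp, Ltf, Cpa3 and Fcer1a, that is both calprotectin genes, 2 of 3 specific granule genes and both mast cell and basophil genes. In Clec9a gfp/gfp cells the S100a8 call was lost in 6 alternatives and the Fcer1a call in 1. The 3 azurophil granule genes and Camp did not pass the test in either genotype. The differences of the 6 ranged from -5.09 to -1.89 on the log2(intensity + 16) scale in WT cells and from -4.81 to -1.99 in Clec9a gfp/gfp cells. Calls rest on limma, a linear model fitted to all 23238 rows, with p adjusted by Benjamini-Hochberg and a threshold of 0.05, at which 31.0% of all rows were called lower in WT cells and 32.1% in Clec9a gfp/gfp cells. The median difference over the 10 members was -1.90 in WT and -2.10 in Clec9a gfp/gfp cells, against -0.04 and -0.05 over all rows. In bulk RNA, fewer cells of a type and less RNA per cell cannot be told apart, and since untreated cells are labelled 0 h, an effect of dead cells and one of 5 h in culture cannot be told apart either. Between genotypes no member was called.

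**Figure D1:**
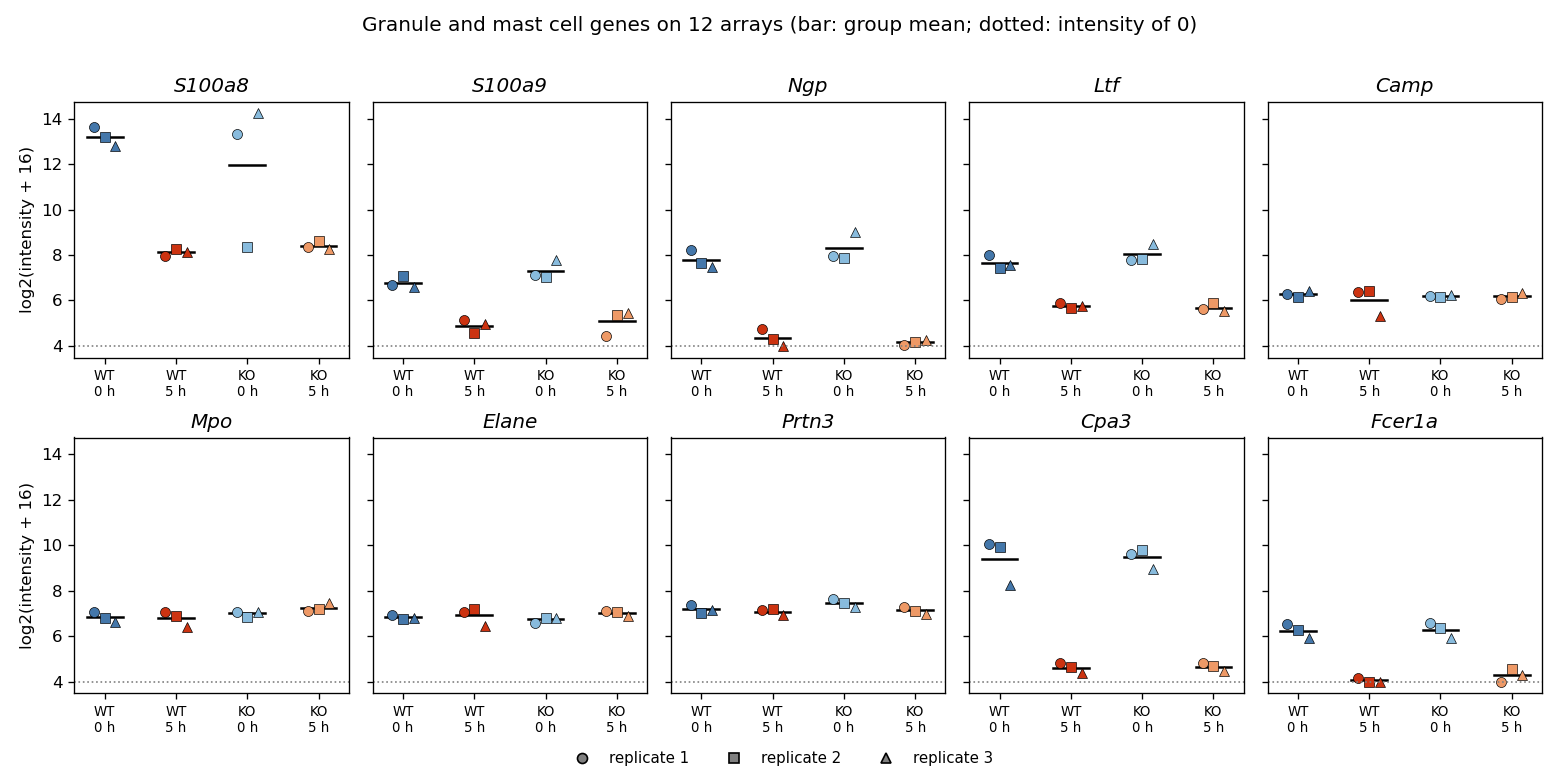
Level of each of the 10 members on every array, as log2(intensity + 16), by genotype (WT, or KO for Clec9a gfp/gfp) and hours with dead cells. Points are arrays with the replicate number as shape, bars are group means, and the dotted line marks an intensity of 0. Ngp, Cpa3 and Fcer1a are close to the dotted line at 5 h, while Camp, Mpo, Elane and Prtn3 stay at similar heights in the 4 groups.

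The arrays as a whole bear on these values. The 6 untreated arrays had medians of 93.6 to 101.2 and upper quartiles of 396 to 437, against 77.9 to 85.9 and 231 to 259 for the 6 with dead cells. The Clec9a row, a check of the genotype labels, read 2581 to 2648 in untreated WT cells and 0.00864 to 4.16 in untreated Clec9a gfp/gfp cells. Of 15 measured markers of type 1 dendritic cells, Naaa read 12641 to 14213 and Xcr1 2932 to 3699 on the untreated arrays. Cd8a of the same list read only 90.0 to 120.7 there, and 457 to 627 with dead cells. Some markers of the labelled cell type were thus bright in untreated cells, while Cd8a was near the array medians. With dead cells 11 of these 15 markers were called lower in WT cells (73.3%) and 10 in Clec9a gfp/gfp cells (66.7%). The shares of all rows were 31.0% and 32.1%. In each genotype 1 of the 15 was called higher. The list holds Clec9a itself, which was called lower in WT cells and had no level to lose in Clec9a gfp/gfp cells.

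S100a8 was lower with dead cells, with 1 untreated array apart. Its intensity in untreated WT cells was 12552, 9330 and 7174, and with dead cells 234, 287 and 268. The Clec9a gfp/gfp arrays read 10247, 310.2 and 19200 at 0 h and 313, 379 and 289 at 5 h, that is with dead cells. The second untreated Clec9a gfp/gfp array thus lay among the arrays with dead cells, and the other 5 untreated arrays did not overlap with those. S100a8 changed by -5.09 ± 1.14 (SE, n = 3 arrays a group) in WT cells (adjusted p = 0.00331, limma) and by -3.56 ± 1.14 in Clec9a gfp/gfp cells (adjusted p = 0.0237). Without the second untreated Clec9a gfp/gfp array the changes were -5.09 ± 0.25 (adjusted p = 1.39e-07) and -5.36 ± 0.28 (adjusted p = 2.81e-07). The call in Clec9a gfp/gfp cells was lost without untreated replicate 1 (adjusted p = 0.0886) or 3 (0.0934), and without dead cell replicate 1 (0.0571) or 3 (0.0599). It was also lost with quantile normalization (0.0522) and in a fit on only the arrays compared (0.0897).

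S100a9, the partner of S100a8 and its next protein-coding neighbour on chromosome 3, had no such array apart. Its intensity in WT cells was 85.7, 116.9 and 81.5 untreated and 18.8, 7.86 and 15.3 with dead cells. The mutant arrays read 122, 113.8 and 204.6 at 0 h and 5.76, 25.1 and 28.2 at 5 h. Neither genotype's groups overlapped. Groups were apart, in either direction, for 6 members in WT and 7 in Clec9a gfp/gfp cells, against 54.9% and 56.0% of all rows. All 6 in WT cells were lower. Of the 7 in Clec9a gfp/gfp cells, Mpo and Elane were higher, and S100a9, Ngp, Ltf, Cpa3 and Fcer1a lower. In the lower direction 34.2% of all rows were apart in each genotype. The change was -1.89 ± 0.29 in WT (SE, n = 3, adjusted p = 0.000219, limma) and -2.21 ± 0.29 in Clec9a gfp/gfp cells (adjusted p = 5.90e-05).

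Of the specific granule genes, Ngp showed the larger change. Its intensity was 285.1, 184 and 163.6 in untreated WT cells and 10.5, 3.82 and 0.00245 with dead cells. The mutant arrays read 235.8, 220.1 and 500.5 at 0 h and 0.436, 2.02 and 3.15 at 5 h. All 6 arrays with dead cells were below 16, the value added before the logarithm, so the log2 change understates the ratio. It was -3.44 ± 0.30 (SE, n = 3, adjusted p = 2.49e-06, limma) in WT and -4.13 ± 0.30 (adjusted p = 5.48e-07) in Clec9a gfp/gfp cells.

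Ltf, which encodes the iron-binding protein lactoferrin, was lower too. It read 241.5, 156.9 and 172.4 in untreated WT cells and 43.2, 34.5 and 37.7 with dead cells. The corresponding intensities in Clec9a gfp/gfp cells were 204.9, 213.3 and 337.6, and 33.1, 43 and 30.8. The groups did not overlap in either genotype. The change was -1.90 ± 0.20 (SE, n = 3, adjusted p = 9.94e-06, limma) and -2.35 ± 0.20 (adjusted p = 1.71e-06).

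Camp, which encodes the precursor of the antimicrobial peptide CRAMP and is a specific granule gene like these, did not pass. Its intensity was 63, 55 and 69.4 in untreated WT cells and 66.4, 69.3 and 23.8 with dead cells, and the mutant arrays read 54.5 to 60.2 at 0 h and 51.4 to 63.9 at 5 h. The groups overlapped. The difference was -0.26 in WT (95% interval -0.79 to 0.27) and -0.01 in Clec9a gfp/gfp cells (-0.55 to 0.52). Both intervals leave out a fall of 1 on the log2(intensity + 16) scale. At these levels the added 16 makes that more than a 2-fold fall in intensity, so leaving it out does not leave out a 2-fold fall.

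**Figure D2:**
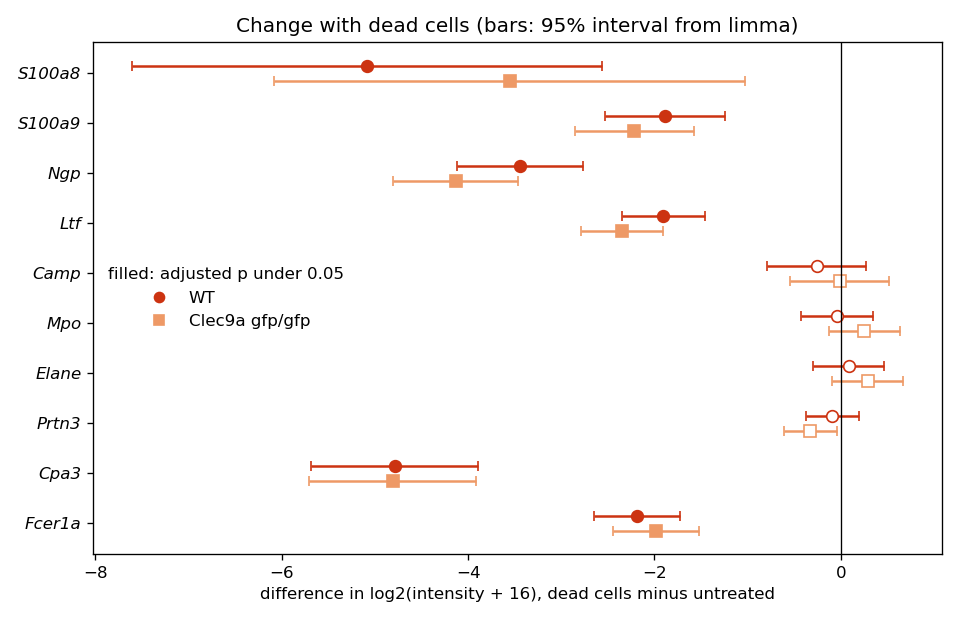
Difference between arrays with dead cells and untreated arrays for each member, in log2(intensity + 16), with 95% intervals from limma (n = 3 arrays a group), for WT (circles) and Clec9a gfp/gfp cells (squares). Filled symbols passed an adjusted p of 0.05. The filled symbols lie at -1.89 or lower and the open ones between -0.33 and 0.29.

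None of the azurophil granule genes was called. Mpo, the peroxidase that makes hypochlorous acid, read 116.3, 96.6 and 82.3 in untreated WT cells and 118.4, 100.9 and 69.4 with dead cells. The mutant arrays read 118.8, 99.6 and 118.9 at 0 h and 123.5, 130.6 and 157.7 at 5 h. The groups overlapped in WT cells and were apart, with higher values, in Clec9a gfp/gfp cells. The differences of -0.04 and 0.25 did not pass (adjusted p = 0.873 and 0.264, limma). With quantile normalization of the arrays, which moved the median of all rows by 0.15 in each genotype, Mpo differed by 0.23 in WT (adjusted p = 0.273) and rose by 0.70 in Clec9a gfp/gfp cells (adjusted p = 0.00401). With the arrays shifted to one median, which moved that median by 0.17 and 0.18, Mpo differed by 0.18 in WT (adjusted p = 0.347) and rose by 0.50 in Clec9a gfp/gfp cells (adjusted p = 0.0152).

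Elane read 91.9 to 106.1 untreated and 72 to 132.1 with dead cells in WT, and on the mutant arrays 80.5 to 96.9 at 0 h and 102.6 to 123.7 at 5 h. As for Mpo, the groups overlapped in WT cells and were apart, with higher values, in Clec9a gfp/gfp cells. Its differences were 0.09 (95% interval -0.29 to 0.47) and 0.29 (-0.09 to 0.67), with adjusted p = 0.723 and 0.196 in limma. Elane rose in Clec9a gfp/gfp cells by 0.65 with quantile normalization (adjusted p = 0.0225), by 0.53 with a shift to one median (0.0213) and by 0.29 without WT dead cell replicate 3 (0.0408).

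Prtn3, the next protein-coding neighbour of Elane on chromosome 10, read 114.7 to 147.5 untreated and 105.9 to 129.1 with dead cells in WT, and 141.1 to 180.9 and 111.6 to 141.6 in Clec9a gfp/gfp cells. The ranges overlapped in both genotypes. Its differences were -0.09 (adjusted p = 0.605) and -0.33 ± 0.13 (SE, n = 3, adjusted p = 0.0570) in limma. The second was near the threshold and passed in 7 alternatives, among them the fits without Clec9a gfp/gfp untreated replicate 3 (-0.41, adjusted p = 0.0373) and dead cell replicate 1 (-0.41, adjusted p = 0.0360). Under quantile normalization it was 0.17 (adjusted p = 0.378), with the opposite sign. No detection calls were used, so whether these 3 genes and Camp, at 23.8 to 180.9, were above background on these arrays was not tested.

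Cpa3, the mast cell carboxypeptidase, had a wide untreated range. It read 1042, 945 and 288.9 in untreated WT cells and 12.3, 8.63 and 5.03 with dead cells. The mutant arrays read 779.1, 870.4 and 486.9 at 0 h and 12.1, 9.49 and 6.40 at 5 h. The lowest untreated array was still far above the highest array with dead cells. The change was -4.79 ± 0.40 (SE, n = 3, adjusted p = 1.76e-06, limma) in WT and -4.81 ± 0.40 (adjusted p = 1.60e-06) in Clec9a gfp/gfp cells, and all 6 arrays with dead cells were below 16.

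Fcer1a fell to values near 0. Its intensity was 77.7, 62.2 and 43.8 in untreated WT cells and 2.03, 0.0222 and 0.00322 with dead cells. The mutant arrays read 78.9, 64.9 and 44.6 at 0 h and 0.00205, 7.84 and 3.59 at 5 h. The groups were apart in both genotypes, by -2.19 ± 0.21 (SE, n = 3, adjusted p = 4.51e-06, limma) and -1.99 ± 0.21 (adjusted p = 9.37e-06). With no pseudocount the difference in Clec9a gfp/gfp cells was -7.31 and did not pass (adjusted p = 0.0844).

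The order of the untreated arrays differed from member to member. The first untreated WT array was the highest of its group for 8 of the 10 members, all but S100a9 and Camp. The third untreated Clec9a gfp/gfp array was the highest of its group for 7 members, all but Prtn3, Cpa3 and Fcer1a, for which it was the lowest. The third untreated WT array was the lowest of its group for S100a8, S100a9, Ngp, Mpo, Cpa3 and Fcer1a. The second untreated Clec9a gfp/gfp array was the lowest of its group for S100a8, S100a9, Ngp, Camp and Mpo. From the lowest to the highest of the 6 untreated arrays, Cpa3 spanned 3.61-fold, Ngp 3.06-fold, S100a9 2.51-fold, Ltf 2.15-fold and Fcer1a 1.80-fold. S100a8 spanned 61.9-fold over 6 arrays and 2.68-fold over the 5 without the second Clec9a gfp/gfp array. In deviations from the group means over the 12 arrays, Pearson's r was 0.84 between Ngp and Ltf and 0.69 between Cpa3 and Fcer1a. Other pairs of one role were lower, with 0.36 between S100a8 and S100a9, 0.41 between Ngp and Camp and 0.08 between Ltf and Camp, while Ngp and Mpo, of different granules, were at 0.69. S100a8 deviated most on the second untreated Clec9a gfp/gfp array, and its correlation with S100a9 was not computed without that array. Pearson's r was 0.81 between Camp and Elane and 0.72 between Camp and Mpo, genes that were all lowest on the third WT array with dead cells. These correlations are descriptions of arrays that share processing.

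**Figure D3:**
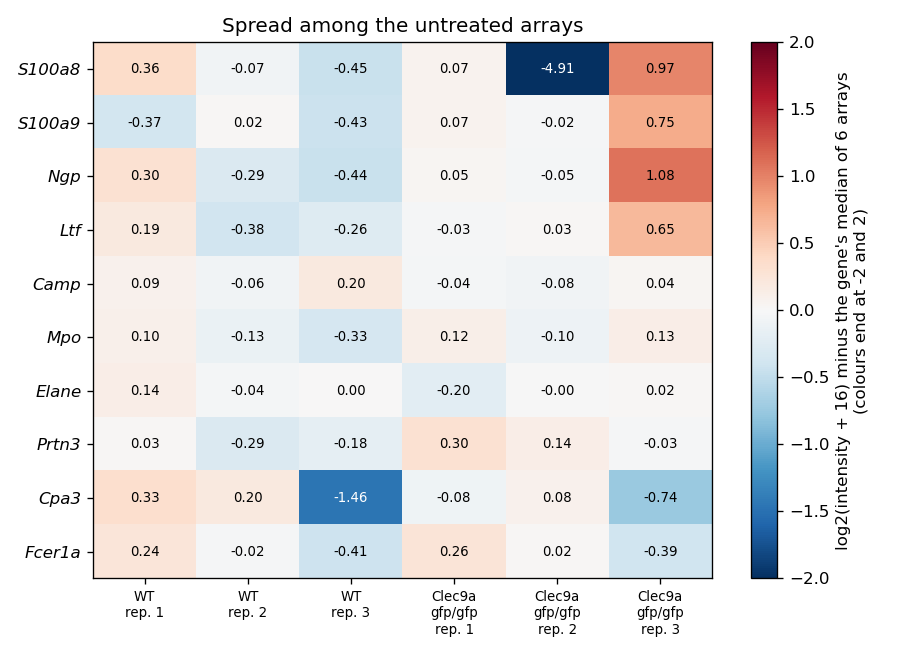
Level of each member on the 6 untreated arrays, as log2(intensity + 16) minus the gene's median over these arrays, with the value in each cell and the colour scale ending at -2 and 2. S100a8 on the second Clec9a gfp/gfp array lies at -4.91, and Cpa3 on the third WT array at -1.46.

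The genotypes were then compared directly, Clec9a gfp/gfp minus WT. In untreated cells none of the 10 members was called in limma, 1 had an unadjusted p under 0.05, and 0.0301% of all rows were called. No member's groups were apart, against 11.3% of all rows. The member with the unadjusted p was Prtn3, at 0.29 ± 0.13 (SE, n = 3, adjusted p = 1.00). S100a8 differed by -1.24 (95% interval -3.76 to 1.29), and by 0.57 ± 0.28 without the second Clec9a gfp/gfp array, with the sign turned and no call in either fit. The other 9 members differed by -0.10 to 0.53.

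With dead cells no member was called either, 1 had an unadjusted p under 0.05 in limma, and 0.0043% of all rows were called. It was Mpo, at 0.47 ± 0.17 (SE, n = 3, adjusted p = 0.815), whose groups did not overlap. The S100a8 groups did not overlap either, with a difference of 0.29 (95% interval -2.23 to 2.82). The spread is shared by all groups, and without the second untreated Clec9a gfp/gfp array the difference was 0.29 ± 0.25. Groups that did not overlap made up 8.65% of all rows in this comparison.

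The difference between the genotypes' responses was called for none of the 10 members, with none at an unadjusted p under 0.05 in limma and 0.0043% of all rows called. The interval of the difference was -1.29 to 1.25 for Cpa3, -0.45 to 0.85 for Fcer1a, -1.64 to 0.26 for Ngp, -1.07 to 0.18 for Ltf and -1.23 to 0.58 for S100a9. For S100a8 the difference was 1.53 (-2.04 to 5.10), and without the second untreated Clec9a gfp/gfp array it was -0.28 ± 0.38, with the sign turned and no call in either fit.

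Other genes of the same granules and cells were read from lists. Of 11 measured specific and gelatinase granule genes 4 were lower in both genotypes, namely Lcn2, Mmp8, Chil3 and Hp, a share of 36.4% that is near the 31.0% and 32.1% of all rows. Lcn2 encodes the iron-scavenging protein lipocalin 2, and it changed by -2.48 ± 0.28 in WT and -2.51 ± 0.28 in Clec9a gfp/gfp cells. Mmp8, the neutrophil collagenase gene, changed by -1.70 ± 0.19 and -2.01 ± 0.19. Hp, the haptoglobin gene, changed by -2.18 ± 0.25 and -2.17 ± 0.25, and Chil3, which encodes a chitinase-like protein, by -1.52 ± 0.27 and -1.54 ± 0.27. The adjusted p-values of these 4 in limma ranged from 4.78e-06 to 0.000676. The median of the list was -0.01 in each genotype, and 3 of its members were called higher in WT and 1 in Clec9a gfp/gfp cells. Those were Cybb, a subunit of the NADPH oxidase (0.49 in both), and in WT cells also Cyba, another subunit (0.26), and Arg2 (0.54).

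Of 5 measured azurophil granule genes besides the members, none was lower in either genotype, against 31.0% and 32.1% of all rows. With only 5 genes, such a count says little beside these shares. Ctsg, the cathepsin G gene, differed by -0.36 in WT (adjusted p = 0.0803) and by -0.10 in Clec9a gfp/gfp cells (0.626), Bpi by 0.25 and 0.24 (0.214 and 0.219), and Rab44 by 0.19 and 0.05 (0.202 and 0.757). Without WT untreated replicate 2, 1 of the 5 was lower in WT cells. Srgn, which encodes the granule proteoglycan serglycin and is expressed in many leukocytes, rose by 0.79 ± 0.09 and 0.64 ± 0.09 (n = 3, adjusted p = 1.45e-05 and 7.98e-05).

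Of 9 measured neutrophil surface and cytosol markers 5 were lower in WT (55.6%) and 6 in Clec9a gfp/gfp cells (66.7%). The shares of all rows were 31.0% and 32.1%. Itgam, the CD11b gene, which macrophages also express, changed by -2.70 ± 0.18 in WT cells, and Csf3r, the G-CSF receptor gene, by -1.75 ± 0.22. Il1r2, a decoy receptor for interleukin-1, changed by -1.33 ± 0.11 and Anxa1 by -0.65 ± 0.11. The adjusted p-values of these 4 in WT cells were 0.000530 or lower in limma. Wfdc21 of the same list rose in both genotypes, by 0.82 (adjusted p = 0.000767) and 0.55 (0.00990), Trem1 and Cebpe passed in neither, and Cxcr2 passed only the test in Clec9a gfp/gfp cells (-1.08, against -0.32 in WT), with the difference between genotypes not called. Ly6g, the gene of the usual neutrophil surface marker, had no row of its own and was not analysed here.

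Of 18 measured companions of mast cells and basophils 9 were lower in WT (50.0%) and 6 in Clec9a gfp/gfp cells (33.3%), and the second share is near that of all rows (32.1%). Prss34, which encodes a protease of basophils and mucosal mast cells, changed by -2.80 ± 0.29 in WT and -2.82 ± 0.29 in Clec9a gfp/gfp cells. Kit, the stem cell factor receptor gene of mast cells and progenitors, changed by -1.94 ± 0.11 and -1.99 ± 0.11, and Alox5, the 5-lipoxygenase gene, by -1.80 ± 0.22 and -2.17 ± 0.22. The adjusted p-values in WT cells were 1.00e-05, 9.88e-08 and 3.25e-05 in limma. The basophil protease gene Mcpt8 and the histidine decarboxylase gene Hdc were singled out after their values were seen. Mcpt8 changed by -2.92 ± 0.37 and -3.24 ± 0.37, while Hdc, which makes histamine, rose by 1.27 ± 0.16 and 1.08 ± 0.16.

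**Figure D4:**
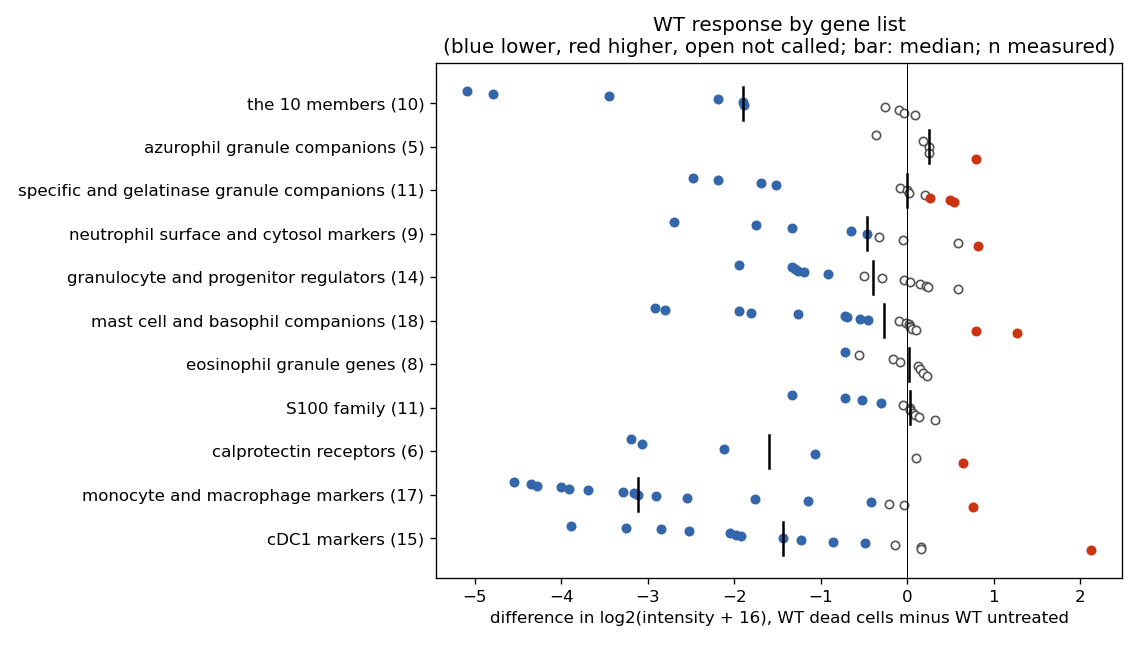
Differences in WT cells, dead cells minus untreated, in log2(intensity + 16), for the 10 members and 10 gene lists, with the number of measured genes in brackets. Each point is a gene, filled blue where lower and red where higher at an adjusted p under 0.05 and open otherwise, and the bar is the median. The members split into 6 at -1.89 or lower and 4 near 0, and the monocyte and macrophage list has its median at -3.11.

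Of 14 regulators of granulocytes and progenitors 6 were lower in WT (42.9%) and 8 in Clec9a gfp/gfp cells (57.1%), among them Kit, Mitf, Runx1 and Sox4. The shares of all rows were 31.0% and 32.1%. Cebpb was called higher in Clec9a gfp/gfp cells (0.31, adjusted p = 0.0327 in limma). With quantile normalization or a shift to one median, 4 regulators were called higher in WT cells. Runx1 changed by -1.30 ± 0.11 and -1.68 ± 0.11, Mitf by -1.33 ± 0.13 and -1.39 ± 0.13, and Sox4 by -1.27 ± 0.12 and -1.08 ± 0.12. Of 8 measured eosinophil granule genes 1 was lower in each genotype (12.5%, against 31.0% and 32.1% of all rows). This was Prg2, at -0.72 ± 0.25 in WT (adjusted p = 0.0392 in limma) and -1.17 ± 0.25 in Clec9a gfp/gfp cells (0.00259). Its call in WT cells was lost under both other scalings and in 7 of the 12 fits that each left out 1 array, which were those without WT untreated replicate 1 or 2, WT dead cell replicate 1, 2 or 3, or replicate 3 of either Clec9a gfp/gfp group. Without Clec9a gfp/gfp untreated replicate 3, 3 of these 8 genes were lower in Clec9a gfp/gfp cells.

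Of 11 other measured S100 genes 4 were lower in WT and 5 in Clec9a gfp/gfp cells (36.4% and 45.5%, against 31.0% and 32.1% of all rows). With quantile normalization they were 2 and 3, where 24.2% and 24.3% of all rows were called lower. S100a3 was called higher in Clec9a gfp/gfp cells (0.48, adjusted p = 0.0176). S100a1 changed by -1.33 ± 0.14 in WT, S100a13 by -0.72 ± 0.10, S100a10 by -0.53 ± 0.09 and S100a6 by -0.31 ± 0.11. Of 6 genes for receptors that have been linked to calprotectin 4 were lower in each genotype (66.7%, against 31.0% and 32.1% of all rows). Tlr4, the endotoxin receptor gene, changed by -3.19 ± 0.17 in WT, Cd33 by -3.06 ± 0.20 and Emb by -2.12 ± 0.13, while Bsg rose by 0.64 ± 0.09.

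Markers of monocytes and macrophages were mostly lower with dead cells, as were 6 of the 10 members and most markers of type 1 dendritic cells. Of 17 measured monocyte and macrophage markers, 14 were lower in each genotype (82.4%, against 31.0% and 32.1% of all rows). The median was -3.11 in WT and -3.17 in Clec9a gfp/gfp cells. Stab1 changed by -4.55 ± 0.18, F13a1 by -4.28 ± 0.14, Csf1r by -3.91 ± 0.18 and C1qb by -3.29 ± 0.15 in WT cells. Lgals3, the galectin-3 gene, rose by 0.76 and 0.52 (adjusted p = 1.23e-05 and 0.000243), and with dead cells its mean of 9869 in WT cells made up most of the list's summed intensity. The summed intensity of the 17 genes was 25248 to 33075 in untreated WT cells and 14079 to 14349 with dead cells, and 28643 to 30872 and 13768 to 14635 in Clec9a gfp/gfp cells. The sum of the 9 neutrophil markers was 9586 to 11010 and 5220 to 6013 in WT cells, and 10102 to 12209 and 6037 to 6459 in Clec9a gfp/gfp cells, most of it from Anxa1 (mean 7062 in untreated WT cells). The sum of the 18 mast cell and basophil companions was 15011 to 17279 and 15238 to 16212 in WT cells, and 16965 to 18757 and 15275 to 15863 in Clec9a gfp/gfp cells. This sum holds the rise of Srgn, whose mean went from 5765 to 9971 in WT cells, beside 9 genes that fell. In the mast cell and basophil list no gene had a mean below 16 in an untreated group, and 1 in WT and 2 in Clec9a gfp/gfp cells did with dead cells. Of the monocyte and macrophage markers none was below 16 untreated and 1 was with dead cells in each genotype. The part of these other cells in the falls of the members was not tested.

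The spread between untreated replicates of the listed genes was set beside that of the members. Mcpt8 read 265.6, 204 and 162.2 in untreated WT and 285.8, 354.8 and 188.8 in untreated Clec9a gfp/gfp cells, lowest on the third array of each group, as Cpa3 and Fcer1a were. Alox5 read 399.5, 372.9 and 214.6, and 427.3, 461 and 307.3, with the same arrays lowest. Prss34, at 363.1, 270 and 260.9, and 295.8, 425.6 and 331.5, was not lowest on the third Clec9a gfp/gfp array. Lcn2 read 340.1, 263.2 and 183.3, and 306.3, 327.2 and 440.9, lowest on the third WT and highest on the third Clec9a gfp/gfp array, as S100a8 and Ngp were. Hp, at 268.4, 302.7 and 326.7, and 338.6, 154.2 and 250.2, was highest on the third WT and the first Clec9a gfp/gfp array. Chil3 was highest on the third array of each group (47.4 in WT and 62.8 in Clec9a gfp/gfp cells). Mmp8 was lowest on the third WT array (32.8) and highest on the first Clec9a gfp/gfp array (73.2).

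The genes most like each member over the 12 arrays were sought among all genes with a mean intensity of at least 64, as a description that mostly follows the treatment. Ngp and Ltf were each other's nearest, with r = 0.99. Nearest to Cpa3 were Tnfrsf21, Ttll1 and Rab1b, with r of 0.99 to 1.00, and nearest to Fcer1a were 2610001J05Rik, Gapt and Slc25a13, at 0.99. Nearest to S100a8 were Ccnf, Snai2 and Fah, at 0.96 to 0.98, and nearest to S100a9 were Madd, Mib1 and Mcm9, at 0.98 to 0.99. For Camp, Mpo, Elane and Prtn3 the highest values were 0.94 with Has1, 0.82 with Zfp423, 0.93 with Col25a1 and 0.87 with Clstn1. In deviations from the group means, which leave out the treatment, the nearest gene was Ccnf for S100a8 (0.97), Mtpap for S100a9 (0.98), Anxa6 for Ngp (0.93), Cuedc2 for Ltf (0.92), Naif1 for Camp (0.99) and Esyt1 for Cpa3 (0.96). For S100a8 this value rests largely on the second untreated Clec9a gfp/gfp array.

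The sequence before each gene's start is shown for members that fell and members that did not, because granule genes of one stage are known to share regulators. C/EBP factors act on specific granule genes, PU.1 and RUNX1 on azurophil granule genes and GATA2 on mast cell and basophil genes. RefSeq (GRCm38.p6) gave a promoter for all 10 members, and the 250 bases before the start were searched on both strands for 4 motifs. The motif of the C/EBP family, TTNNGNAA, stood in 5 of the 6 members that were lower (all but Cpa3) and in none of the other 4, against 36.8% of all 32851 promoters of this length. The PU.1 motif GAGGAA stood in 6 members, against 23.3% of all promoters. Of these, 3 were lower members and the others were Mpo, Elane and Prtn3. For RUNX factors the letters searched were TGTGGT, which 3 members hold (S100a9, Cpa3 and Fcer1a), as do 4614 of all promoters. The GATA motif GATAAG was in no member and in 6.55% of all promoters. The members were chosen with results known, and a match is a description of letters and not a binding site. The printed promoters are of S100a8 (chr3:90668821-90669070, plus strand), Ngp (chr9:110419558-110419807, plus), Cpa3 (chr3:20242182-20242431, minus), Camp (chr9:109849457-109849706, minus) and Elane (chr10:79886062-79886311, plus), each 5′ to 3′ with matches in capitals, none of which overlap.
S100a8: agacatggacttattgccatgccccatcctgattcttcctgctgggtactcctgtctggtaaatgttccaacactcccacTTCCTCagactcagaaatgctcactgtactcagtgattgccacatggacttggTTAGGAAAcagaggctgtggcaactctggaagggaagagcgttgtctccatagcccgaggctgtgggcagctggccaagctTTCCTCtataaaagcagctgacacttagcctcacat
Ngp: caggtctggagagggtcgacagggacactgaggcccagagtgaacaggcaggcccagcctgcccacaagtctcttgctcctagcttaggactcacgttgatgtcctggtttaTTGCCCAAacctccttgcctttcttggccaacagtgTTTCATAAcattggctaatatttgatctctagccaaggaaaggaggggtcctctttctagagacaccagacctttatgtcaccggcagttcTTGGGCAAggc
Cpa3: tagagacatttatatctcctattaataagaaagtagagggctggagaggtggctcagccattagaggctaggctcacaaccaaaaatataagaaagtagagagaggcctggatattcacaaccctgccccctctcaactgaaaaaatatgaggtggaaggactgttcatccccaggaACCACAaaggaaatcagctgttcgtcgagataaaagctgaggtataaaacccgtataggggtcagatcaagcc
Camp: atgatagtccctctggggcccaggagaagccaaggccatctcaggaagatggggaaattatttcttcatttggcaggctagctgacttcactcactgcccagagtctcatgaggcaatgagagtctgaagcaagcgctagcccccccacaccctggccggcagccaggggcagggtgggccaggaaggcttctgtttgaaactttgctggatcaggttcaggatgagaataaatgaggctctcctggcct
Elane: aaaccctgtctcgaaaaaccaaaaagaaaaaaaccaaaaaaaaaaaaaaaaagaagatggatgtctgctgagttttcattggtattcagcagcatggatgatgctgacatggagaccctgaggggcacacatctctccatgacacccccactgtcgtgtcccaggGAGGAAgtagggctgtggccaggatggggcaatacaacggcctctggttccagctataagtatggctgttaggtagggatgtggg
In these letters S100a8 holds 1 C/EBP match between 2 PU.1 matches, Ngp holds 3 C/EBP matches, Cpa3 holds 1 RUNX match on the opposite strand, Elane holds 1 PU.1 match and Camp holds none of the 4 motifs.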

How the data were processed

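Expression was measured on 12 arrays, 3 in each of 4 groups taken from the labels. The values are the authors' deposited linear intensity for each of 23238 rows, with the scale read from the values. Per the labels' protocols, RNA was labelled with a whole-transcript kit. The submitters' processing notes name the build mm8. How background was corrected and arrays were summarised and normalized is not given in the sources used here. Precision is limited by the number of arrays.

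Gene names came from a platform annotation updated through gene IDs to RefSeq GRCm38.p6, which gave 14939 rows with 1 symbol (14884 matched to RefSeq), 989 with several and 7310 not in the gene table. Where a gene had several rows, the brightest was used. Intensities were converted to log2(value + 16), which understates changes of dim genes, and tested with limma 3.58.1 (R 4.3.3, lmFit and eBayes, two-sided, all 12 arrays, a mean per group), adjusted by Benjamini-Hochberg over all rows of a comparison. The test was checked on simulated data with 200 changed rows among 23238. Of changes of 0.5 on the log2 scale, 0.0% were recovered in each comparison simulated. Of changes of 1, 65.0% were recovered for the WT response, 68.5% for the untreated genotypes and 43.5% for the difference in response. Genotype differences of this size could therefore go uncalled. In the real WT response far more rows were called than the 200 simulated, 3368 higher and 7213 lower, so the adjustment was less strict there. The recovery simulated for the WT response therefore does not carry over to it, where Cyba was called at 0.26. An exact permutation test of 3 against 3 arrays cannot go below 0.1.

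The members, the 10 gene lists (4 genes stand in more than 1) and the motifs were chosen with earlier results of these data known. All members were named, with Clec9a and up to 4 genes per list by smallest p in the WT response. Other listed genes named in the text (such as Mcpt8, Hdc, Wfdc21, Cybb, Cyba, Arg2, Cxcr2, S100a3 and Lgals3) were chosen after their values were seen. Replicate numbers were checked as pairs. Deviations of same-numbered arrays correlated at -0.164 to 0.133 (18 pairs), and those of arrays with other numbers at -0.1352 to 0.1755 (36 pairs). These correlations over all rows gave no sign of pairing by number and cannot exclude it. The 12 kinds of alternatives comprised pseudocounts of 0, 1 and 64, quantile normalization, arrays shifted to a common median, array weights, a replicate block, a fit on only the arrays compared, robust eBayes with a trend, a single row for each gene, a filter on the dimmest 25% of rows, and leaving out each array.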

Additional observations from a re-analysis of the deposited data

How the results depend on the processing

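The count of members called was 6 in WT cells and 5 to 6 over all alternatives, the 5 coming from removal of the dimmest 25% of rows, which also removed Fcer1a. In Clec9a gfp/gfp cells it was 6, with 5 to 8 over all alternatives and 5 to 7 when 1 array was left out. It was 0 in both genotype comparisons and in the difference between responses under every alternative run. No called difference of a member changed sign. Of the 6 genes called lower in both genotypes, S100a8 and Fcer1a in Clec9a gfp/gfp cells lost the call in some alternatives. S100a8 lost it with quantile normalization (-3.08, adjusted p = 0.0522), with only the arrays compared (-3.56, adjusted p = 0.0897) and without each of 4 arrays. Sign changes of differences that passed in neither fit were not counted. With the replicate block, which the data do not support as a pairing, 7 members were called in Clec9a gfp/gfp cells, the added one being Prtn3 (-0.33, adjusted p = 0.0228). Over all rows, 3368 were called higher and 7213 lower in WT cells, against 6276 and 5633 after quantile normalization. A common median for all arrays gave 6507 and 6192. In Clec9a gfp/gfp cells these pairs were 3856 and 7457, 6622 and 5645, and 6975 and 6340. Counts of listed genes called higher moved with the scaling, from 3 to 4 for specific granule genes and from 0 to 4 for regulators in WT cells, while the 4 specific granule genes called lower stayed 4 under both scalings. Removal of the dimmest rows left 2 of these 4 called lower. Other single-symbol rows of a member could not be tried because each member had 1 row. Values below 16 have little resolution on this scale, and detection calls were not used.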

Other observations

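For the second untreated Clec9a gfp/gfp array, 2262 rows were at 1000 or more on each of the other 5 untreated arrays, and S100a8 was the only one of them at least 8-fold lower on this array than on any of those 5. The same count was 0 for each of the other untreated arrays, over 2164 to 2234 rows. On that array Ngp (220.1), S100a9 (113.8), Hp (154.2), Mmp8 (49.6) and Chil3 (29.75) were also the lowest of their group, as were Camp and Mpo. Ltf (213.3) and Lcn2 (327.2) were not. This count was made after the S100a8 values were seen, and the cause was not tested.

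Of the mast cell and basophil proteases, Mcpt8, Prss34 and Gzmb were called lower in both genotypes. Tpsb2, Cma1, Mcpt1 and Mcpt2 were not called in either. Tpsb2 read 48.2 to 75.5 and Cma1 41.8 to 60.1 over the 12 arrays, below the median of each array, and whether these probes were above background was not tested. These genes were chosen after their values were seen.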
